A study of Danio rerio with 4 samples.

Results

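Apolipoproteins are the protein components of lipoproteins, the particles that carry triglyceride and cholesterol through the blood. The apolipoprotein genes are described here in the livers of larval zebrafish 5 days after fertilisation (5 dpf). The genes were chosen by symbol from a list of 9: apoa1a, apoa1b, apoa2, apoa4, apobb, apoea, apoeb, apoc1l and apoc2. Rows with 7 of these symbols were in the table analysed, among 11021 genes in all. The genes apoc1l and apoc2 had no row under these names or under a symbol that RefSeq pairs with them, and were not analysed here.

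The study set livers with a high level of human UHRF1 fused to GFP, labelled Tg(fabp10:has.UHRF1-GFP) and called the High line in the series' text, against livers with nuclear mCherry, labelled Tg(fabp10:nls-mCherry). Both transgenes use the fabp10 promoter, which is active in hepatocytes, so other cells of the organ are not targeted. Polyadenylated RNA was sequenced from 2 libraries of each group, all at 5 dpf. The values analysed here are those of UHRF1-high libraries A and B; the mCherry livers were not analysed here, so nothing below is an effect of UHRF1. The labels do not say how many larvae were pooled or whether the 2 libraries share a clutch, and the spread between A and B may be technical.

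The liver and the intestine make most plasma apolipoproteins. Apolipoprotein B is the structural protein of the triglyceride-rich particles, which hepatocytes load with lipid by means of the microsomal triglyceride transfer protein. Apolipoproteins A-I and A-II are the main proteins of high-density lipoprotein, apolipoprotein E binds receptors of the LDL receptor family, and the small C apolipoproteins regulate lipases. Zebrafish keep several of these genes as duplicated copies, marked by the last letters of the symbols, and in larvae the yolk syncytial layer is a further site of their expression.

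The values are quantile-normalised by the authors: each library was given nearly the same set of values, so that a value stands for a gene's rank within its library. The median over all genes was 4.36 in A and 4.41 in B. The unit before this step and the sequencing depth are not known, so no counting interval can be given. It is also not known whether values were divided by transcript length, and levels of different genes are therefore compared only as deposited. Each mean below is over the 2 libraries, with the SD as the spread between them.

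The libraries differed in markers of hepatocytes and of other cells. Over all 8386 genes with a mean of at least 1, 7.07% were at least 2-fold higher in A and 6.83% in B. Of 16 exocrine pancreas markers in the table, 14 were at least 2-fold higher in A. In B 1 was, ela2l, with 4.02 in A and 36.4 in B. The 16 markers summed to 11669 in A and 1357 in B. Of 21 skeletal muscle markers with a mean of at least 1, all 21 were at least 2-fold higher in B; the 22 in the table summed to 535 in A and 4593 in B, with tnnt3a and pvalb3 at the lowest value of the table in A. Macrophage markers summed to 94.8 in A and 212 in B over 11 genes, and skin epithelium markers to 248 in A and 604 in B over 13. In this RNA from whole livers, fewer cells of a type and less RNA per cell cannot be told apart. The 15 hepatocyte markers summed to 59158 in A and 42954 in B. Of these, 10 were higher in A and 4 in B. At least 2-fold higher in A were 5, which were tfa, gc, rbp4, serpina1 and tdo2a, at 3.06-fold to 7.19-fold. None was at least 2-fold higher in B. The median difference of the 15, taken on the log2(value + 1) scale, was 0.14. The hepatocyte gene fabp10a held rank 3 in both libraries, so its equal values there are fixed by that rank.

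All 7 apolipoprotein genes lay above the median of the table, and 2 of them held its highest values. The apolipoprotein A-I gene apoa1b stood at 130650 in A and 130650 in B, first among all genes in each. The apolipoprotein A-II gene apoa2 had 73737 in A and 73737 in B, second in each. Both genes encode the core proteins of high-density lipoprotein. Their values are identical in A and B because a gene at a given rank receives the value of that rank, so a difference that left them first and second cannot be seen. The value at rank 1 was 1.77 times that at rank 2, which in turn was 2.49 times that of fabp10a at rank 3.

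Together apoa1b and apoa2 made up 23.8% of the summed value in A and 23.8% in B, a share fixed by their ranks. The other 5 genes summed to 4911 in A and 3621 in B. All 7 genes together held 24.3% of the sum in A and 24.2% in B.

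The gene apoa4, now apoa4b.1 in RefSeq, encodes a form of apolipoprotein A-IV, which in mammals is made mainly by the intestine and rides on chylomicrons. It had 2588 in A and 1273 in B, averaging 1931 ± 930 (SD, n = 2), and ranked 37th in A and 124th in B. The gene apoeb, 1 of the 2 apolipoprotein E genes, had 2007 in A and 1741 in B, averaging 1874 ± 188 (SD, n = 2), at ranks 67 and 86. Between apoa4 and apoeb the order of levels depended on the library: apoa4 was the higher in A and apoeb in B, and their ranges overlapped. They did not differ beyond the spread of the libraries.

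The second apolipoprotein A-I gene, apoa1a, had 158 in A and 474 in B, averaging 316 ± 224 (SD, n = 2). The gene apobb, now apobb.1 in RefSeq, is an apolipoprotein B gene. It had 147 in A and 78.0 in B, averaging 113 ± 49.1 (SD, n = 2). The further apolipoprotein B genes apoba and apobb.2 had no single matching row, so these values are not those of apolipoprotein B as a whole. The ranges of apoa1a and apobb only just missed each other, with the lower value of apoa1a at 158 and the higher of apobb at 147. In library A the 2 genes stood at a ratio of 1.07 and in library B at 6.08. The second apolipoprotein E gene, apoea, was the lowest of the 7, with 11.2 in A and 55.0 in B, averaging 33.1 ± 31.0 (SD, n = 2). It ranked above 68.8% of the genes in A and 89.6% in B, while each of the other 6 ranked above at least 91.8% in both libraries.

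From high to low by mean the order was apoa1b, apoa2, apoa4, apoeb, apoa1a, apobb and apoea. The overlap of apoa4 with apoeb was the only one among the 6 neighbouring pairs, and with 2 libraries per gene a gap between ranges is a weak statement. The order can include transcript length: the deposited span of apobb on the genome is 15164 bases, against 1351 to 4545 bases for the other 6.

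**Figure D1:**
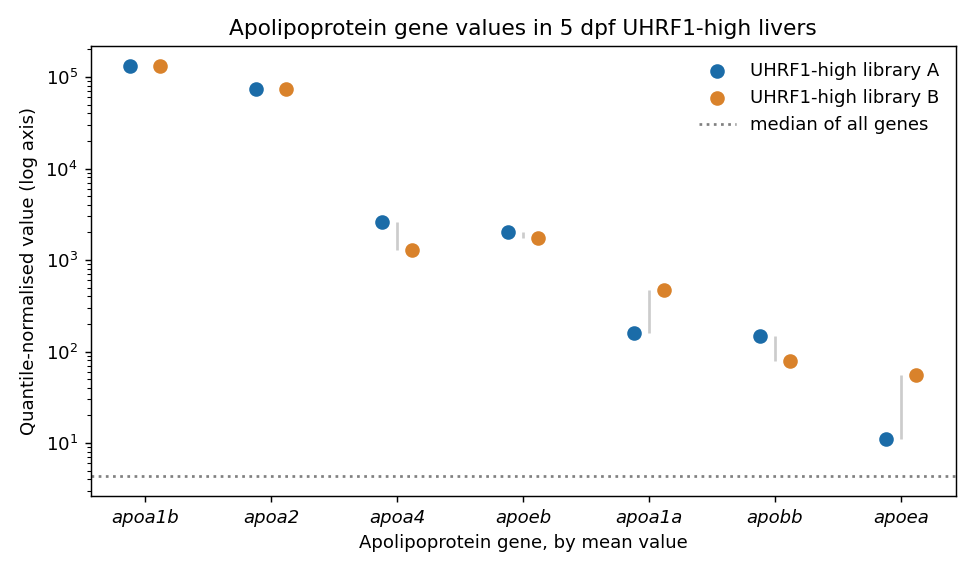
Quantile-normalised value (log axis) of the 7 apolipoprotein genes in UHRF1-high libraries A and B, ordered by mean; grey lines join the 2 libraries and the dotted line is the median of all genes. The points of apoa1b and apoa2 coincide at the top ranks, and those of apoa1a and apoea lie higher in B.

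Set against each other, the libraries differed by gene and in both directions. On the log2(value + 1) scale, which understates differences of low genes, apoa4 differed by 1.02 (A minus B), apobb by 0.91 and apoeb by 0.20. The genes apoa1a and apoea went the other way, with -1.58 and -2.20. Each member had a mean of at least 1, the minimum used for this comparison, so all 7 entered it. With 1 library on each side there is no test of these differences.

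Of the 7 genes, 1 was at least 2-fold higher in A, which was apoa4, at 2.03-fold (folds are ratios of the deposited values, and the 2-fold line is drawn on the log2(value + 1) scale). Of all 8386 genes with a mean of at least 1, 593 or 7.07% were at least 2-fold higher in A. At least 2-fold higher in B were 2 of the 7, apoa1a at 3.01-fold and apoea at 4.92-fold, where 573 genes or 6.83% of all were. The genes just short of and just past the 2-fold line towards A were apobb (1.89-fold) and apoa4. The count of 1 towards A depended on the scale: relative to the median of the hepatocyte markers, apoa4 differed by 0.88 and the count was 0, while on that scale 462 of all genes were at least 2-fold higher in A and 786 in B. The median difference over the 7 genes was 0, set by the ranks of apoa1b and apoa2, and the median over all genes was -0.02. A difference as large as that of apoea in either direction was seen in 1.79% of the genes, one as large as that of apoa1a in 4.51%, as that of apoa4 in 13.3% and as that of apobb in 17.0%. For apoeb the share was 71.0%, so that its difference was smaller than that of most genes.

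**Figure D2:**
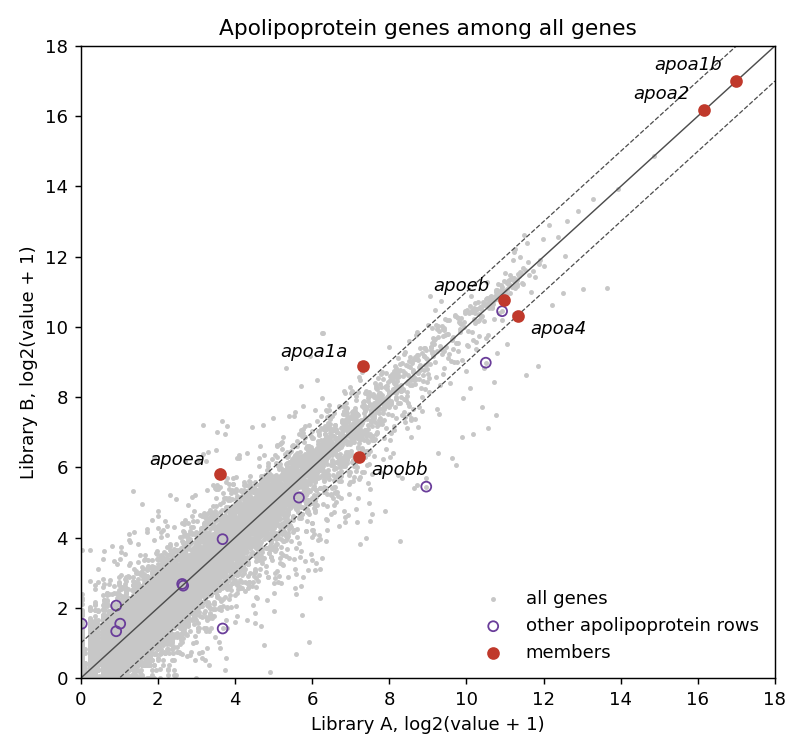
Values on the log2(value + 1) scale in library A (x axis) and library B (y axis) for all 11021 genes (grey), the 7 apolipoprotein genes of the list (red, named) and 12 other rows of apolipoprotein or associated genes (open circles). The solid line marks equal values and the dashed lines a 2-fold difference; apoa1a and apoea lie above the upper dashed line and apoa4 just past the lower one.

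Within each duplicated pair the copies differed in level. The apoa1b value was 829 times that of apoa1a in A and 276 times in B, and the value of apoeb was 180 times that of apoea in A and 31.7 times in B. In both pairs the copy with the lower value was higher in B. For apoa1b, held at rank 1, a difference between libraries cannot be seen, so the change in the first ratio is that of apoa1a. Both low copies had values that moved with the skeletal muscle, macrophage and skin markers, whose median differences were -3.20, -1.23 and -1.30. The part of those markers in the values of apoa1a and apoea was not tested. The gene nearest to apoa1a over both libraries, by distance on the log2(value + 1) scale, was acta1a, a skeletal muscle actin gene, with 150 in A and 489 in B. The gene nearest to apoea was the adenylate kinase gene ak1, with 11.3 in A and 59.4 in B. With 2 libraries such nearness says only that the 2 values are alike. How the authors assigned reads that fit both copies of a pair is not given in the sources used here, so the level of the lower copy is uncertain.

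The other members had metabolic genes among their nearest neighbours in value. The nearest to apoa4 was gamt, which encodes a methyltransferase of creatine synthesis, with 2389 in A and 1316 in B. The nearest to apoeb was hpda, an enzyme gene of tyrosine breakdown, with 2084 in A and 1795 in B. For apobb it was the cytochrome b5 gene cyb5a, with 164 in A and 78.1 in B. The genes apoa1b and apoa2 were nearer to each other than to any gene outside the member list. Among genes outside it, fabp10a was the nearest to each, 3.03 and 1.86 away on that scale. These distances are fixed by the ranks of the genes.

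The 7 genes lie on 5 chromosomes, and 3 of them share a cluster on chromosome 16. In Zv9 coordinates the cluster runs from apoa4 (26153354 to 26155302) through apoeb (26200542 to 26202783) to apoa2 (26218240 to 26219590), an extent of 66.2 kb. The table holds 2 further genes between them, and RefSeq names both as apolipoprotein genes: zgc:194131 is apoa4b.2 and zgc:193682 is apoc4. All 5 tabulated genes of the interval are thus apolipoprotein genes. The flanking rows of the table are gtpbp10 before the cluster, with 5.71 in A and 3.45 in B, and bcam after it, with 0.609 in A and 0.833 in B.

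Levels within the cluster ranged from the second highest of the table to a few units. The second apolipoprotein A-IV gene of the cluster, apoa4b.2, had 1450 in A and 505 in B, 2.87-fold higher in A. The gene apoc4 had 11.8 in A and 1.67 in B, with a difference of 2.27 on the log2(value + 1) scale. From the start of apoa4 along the cluster the differences were thus 1.02, 1.52, 0.20, 2.27 and 0. Leaving aside apoa2, whose equality is fixed by its rank, all 4 genes were higher in A, and 3 of them at least 2-fold, where 7.07% of all genes were. In either direction, 4077 of all 8386 genes were higher in A and 4281 in B. The flanking gene gtpbp10 differed by 0.59 and bcam by -0.19. The exocrine pancreas markers also lay towards A, with a median of 3.14. Of 15 hepatocyte markers, 10 were higher in A and 4 in B, with a median of 0.14. The part of either set of markers was not tested. The ratio of apoa4 to apoa4b.2 was 1.78 in A and 2.52 in B.

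**Figure D3:**
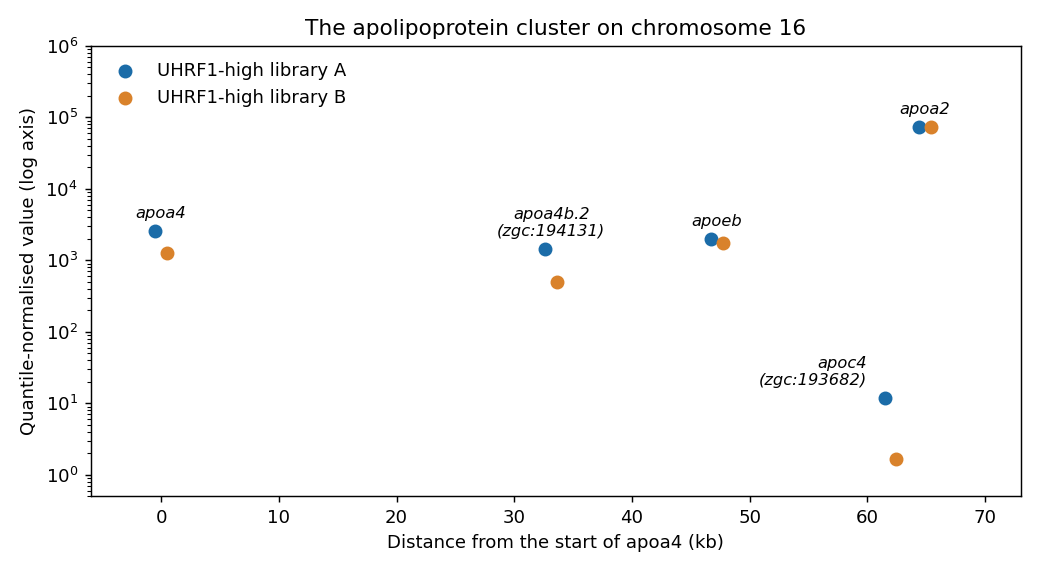
Quantile-normalised value (log axis) in libraries A and B of the 5 genes tabulated in the chromosome 16 cluster, against the distance of each gene's start from that of apoa4 in kb. The points of A lie above those of B for apoa4, apoa4b.2, apoeb and apoc4, and coincide for apoa2.

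The remaining genes stand apart on the genome. In Zv9, apoa1b was placed at the very start of chromosome 15 (3011 to 5228), apoa1a on chromosome 5 (39578942 to 39581974), apobb on chromosome 20 (31295655 to 31310818) and apoea on chromosome 19 (11954400 to 11958944). The row next to apoea, 4.33 kb away, is zgc:112992, which RefSeq names apoa4a. It had 0.894 in A and 3.19 in B, a difference of -1.15, and so was also higher in B. The row on the other side of apoea, the proteasome gene psmd4a, had 90.9 in A and 102 in B. Beside apoa1a lay pafah1b2, with 0.810 in A and 1.12 in B, and beside apoa1b lay bace1, with 3.16 in A and 2.30 in B. The neighbours of apobb were also low, with zgc:63695 at 2.59 in A and 0.976 in B and si:dkey-185l3.3 at 8.41 in A and 6.10 in B. Among these neighbours, psmd4a was the only one with a higher value than the apolipoprotein gene beside it, in both libraries.

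Beyond the 7, the table held 12 rows of other genes that carry an apolipoprotein name or are associated with one, and of the 11 above the minimum 6 were higher in A and 5 in B. The highest was apom, whose product carries sphingosine 1-phosphate on high-density lipoprotein, with 1944 in A and 1397 in B, averaging 1671 ± 387 (SD, n = 2). After apom and apoa4b.2 came si:dkey-52k20.7, named apoda.2 in RefSeq, a gene of the lipocalin apolipoprotein D. It had 497 in A and 42.8 in B, 11.6-fold higher in A. The adjacent apolipoprotein D gene apoda.1 (zgc:153593) had 0.894 in A and 1.53 in B. The clusterin gene clu, whose product is also called apolipoprotein J, was at the lowest value of the table in A and at 1.94 in B. The genes apool (49.5 in A and 34.3 in B) and apoob (5.31 in A and 5.21 in B) encode proteins of the mitochondrial inner membrane. The gene apoa1bp, now naxe, encodes an epimerase that binds apolipoprotein A-I, and had 11.8 in A and 14.5 in B. In this list 3 of 11 genes were at least 2-fold higher in A and 1 in B, where 7.07% and 6.83% of all genes were, with a median difference of 0.02, and of -0.01 without the minimum.

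Genes that load and export apolipoprotein B particles were mostly higher in A, as apobb was. Of 19 such genes above the minimum, 16 were higher in A and 3 in B, with a median difference of 0.54. Over all 8386 genes, 4077 were higher in A and 4281 in B, with a median of -0.02. At least 2-fold higher in A were 2 of the 19, where 7.07% of all genes were, and none was so in B. Many genes of the list serve secretion in general, and exocrine pancreas markers lay in the same direction, with a median of 3.14. Of 15 hepatocyte markers, 10 were higher in A and 4 in B, with a median of 0.14. The part of these markers in the values of the list was not tested. Among the highest were pdia3, an endoplasmic reticulum disulfide isomerase gene, with 237 in A and 241 in B, and sar1b, a GTPase gene of the vesicles that carry large lipoproteins out of the endoplasmic reticulum, with 169 in A and 125 in B. The phospholipase-like gene pla2g12b had 95.5 in A and 42.5 in B, 2.25-fold higher in A. The triglyceride synthesis gene dgat2 had 7.92 in A and 0.691 in B, and mcfd2, whose product is part of a cargo receptor complex, had 72.7 in A and 51.9 in B.

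The gene of the microsomal triglyceride transfer protein, mttp, was chosen after its values were seen, because it is the direct partner of apolipoprotein B. RefSeq pairs it with 2 overlapping rows of the table, and it is left out of the counts for that reason. The row mtp had 32.5 in A and 14.7 in B, and the row zgc:136353 had 52.7 in A and 28.3 in B. These are 2.22-fold and 1.87-fold higher in A, beside 1.89-fold for apobb. The ratio of apobb to mtp was 4.54 in A and 5.32 in B, and that of apobb to zgc:136353 was 2.80 in A and 2.76 in B.

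Genes that act on lipoproteins in plasma also lay more often towards A. Of 12 above the minimum, 10 were higher in A and 2 in B, and the median difference was 0.43. Over all 8386 genes, 4077 were higher in A and 4281 in B, with a median of -0.02. Hepatocyte markers (10 of 15 higher in A and 4 in B, median 0.14) and exocrine pancreas markers (median 3.14) also lay towards A. The part of these markers in the values of the list was not tested. The cholesteryl ester transfer gene cetp had 102 in A and 93.4 in B, and the lipoprotein lipase gene lpl had 78.1 in A and 47.9 in B. The lipase inhibitor gene angptl4, with 62.5 in A and 30.9 in B, was 2.02-fold higher in A. The paraoxonase gene pon1, whose product travels on high-density lipoprotein, had 57.8 in A and 37.9 in B.

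Receptor genes had low values in both libraries. Only 10 of 23 listed were in the table and 6 were above the minimum, with 3 higher in each library and a median difference of -0.05. The LDL receptor gene ldlr, now ldlra, had 13.0 in A and 1.67 in B, a difference of 2.39. The high-density lipoprotein receptor gene scarb1 had 5.41 in A and 3.08 in B. The lipolysis-stimulated receptor gene lsr, the highest of the list, had 19.8 in A and 19.3 in B, and lrpap1, a chaperone gene of the receptors, had 10.8 in A and 13.1 in B. The gene lrp2a was at 0.183 in A and listed at 0 in B.

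In the list of cholesterol efflux and storage genes, 7 of 9 above the minimum were higher in A and 2 in B, and the median difference was 0.36. For all 8386 genes the counts were 4077 in A and 4281 in B, with a median of -0.02. None of the 9 was at least 2-fold higher in A and 1 was in B, where 7.07% and 6.83% of all genes were. Hepatocyte markers (10 of 15 higher in A and 4 in B, median 0.14) and exocrine pancreas markers (median 3.14) lay towards A too. The part of these markers in the values of the list was not tested. The lysosomal cholesterol carrier gene npc2 had 173 in A and 146 in B, and npc1, of the same pathway, had 25.4 in A and 16.1 in B. The sterol exporter gene abcg5 had 6.59 in A and 5.51 in B, and abcg8 had 11.9 in A and 5.51 in B. The exporter gene abca1b, which loads cholesterol onto apolipoprotein A-I in its mammalian form, was at the lowest value of the table in A and at 0.773 in B. The cholesterol esterification gene soat2, tabulated as zgc:153102, went the other way with 7.28 in A and 15.6 in B.

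Among transcription factor genes known to act on apolipoprotein genes, mostly from mammals, 18 of 23 above the minimum were higher in A and 5 in B, with a median difference of 0.39. Of all 8386 genes, 4077 were higher in A and 4281 in B, with a median of -0.02. Towards A also lay hepatocyte markers (10 of 15 higher in A and 4 in B, median 0.14) and exocrine pancreas markers (median 3.14). Their part in the values of these regulator genes was not tested. The list's highest members were cebpb, with 169 in A and 118 in B, and cebpa, with 92.9 in A and 54.4 in B. The gene hnf4a, a nuclear receptor that in mammals drives many apolipoprotein genes, had 29.3 in A and 12.6 in B, 2.33-fold higher in A. Of the forkhead genes, foxa1 had 31.1 in A and 12.3 in B, foxa2 had 32.5 in A and 19.7 in B, and foxa3 went the other way with 25.1 in A and 32.5 in B. The nuclear receptor gene nr2f1a, the largest difference towards B among genes of the list with a mean of at least 10, had 9.75 in A and 19.8 in B. The gene nr0b2a, which encodes a repressing nuclear receptor, had 0.183 in A and 3.08 in B. The gene creb3l3l had 20.2 in A and 20.2 in B.

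**Figure D4:**
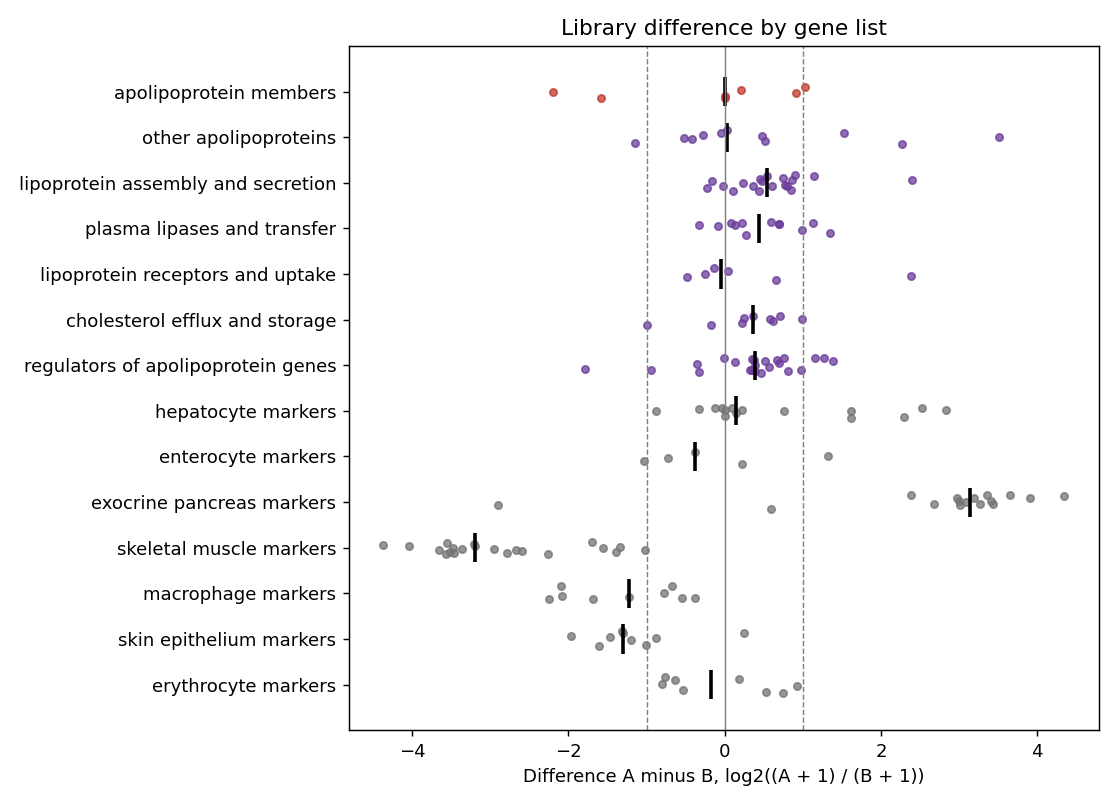
Difference A minus B on the log2(value + 1) scale for each gene with a mean of at least 1 in the apolipoprotein genes (red), 6 lists of lipoprotein and regulatory genes (purple) and 7 lists of cell type markers (grey). Black bars are list medians and dashed lines a 2-fold difference; the exocrine pancreas markers have their median at 3.14 and the skeletal muscle markers at -3.20.

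The intestine is the other organ that expresses apoa4, apobb and apoa1 genes. The 8 enterocyte markers in the table summed to 184 in A and 276 in B, with cdx1b at 0.183 in A and listed at 0 in B. Of them fabp2 was highest and had 115 in A and 151 in B, and rbp2a had 42.5 in A and 87.8 in B. Of the 5 markers above the minimum, 1 was at least 2-fold higher in A and 1 in B, where 7.07% and 6.83% of all genes were. Higher in A by any amount were 2 of the 5 and higher in B were 3, with a median difference of -0.38. Those higher in A were anpepa, with 2.63 in A and 0.447 in B, and vil1, with 1.81 in A and 1.40 in B. The genes apoa4 and apobb were higher in A and apoa1a in B, and the part of intestinal RNA in these values was not tested. Erythrocyte markers summed to 1457 in A and 2351 in B, a sum made up mostly of globin genes such as hbae3, with 663 in A and 1035 in B. Among the 8 that passed the minimum, 4 were higher in each library and none was at least 2-fold different, with a median difference of -0.18.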

How the data were processed

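RNA was extracted with Trizol, selected on poly-A beads and fragmented, per the labels' protocols, while the series' text speaks of small RNA. The authors deposited signal values and named the table as quantile-normalised. Zv9 (danRer7) and CASAVA 1.7 were used, per the submitters' processing notes. For the aligner, annotation, counting and gene filter, nothing is given in the sources used here. The columns of A and B were matched to sample titles, and 0 other value columns were left unused. Coordinates count from 1.

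Differences are log2((A + 1)/(B + 1)) for genes whose mean reached 1 (8386); the 2635 below entered only levels and ranks. No test was possible, with both libraries in 1 group. Python 3.11.15 with pandas 2.3.3 was used. Simulated data, with less spread than that between A and B, served only to check that 2-fold calls had the right direction. RefSeq (GRCz12tu) holds 8848 of the table's symbols as current and 1963 as older names of 1 gene only; 210 had no match.

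The members and lists were chosen with earlier results of these data known. Named genes are all members, the 4 highest genes of each list, the highest marker of each cell type, and each member's nearest gene. Each list's largest difference each way at a mean of at least 10 is also named. Members were left out of the search for nearest genes. Any other gene named was chosen for its role, position or difference after its values were seen. The values of 1 gene that this rule names are not reported here, though the counts of its list include it.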

Additional observations from a re-analysis of the deposited data

How the results depend on the processing

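The results were recomputed with a pseudocount of 0.1 or 10, division of each library by its median, the log2 ratio of ranks, no minimum or a minimum of 10 on the mean, and differences relative to the hepatocyte markers. The count of apolipoprotein genes at least 2-fold higher in A stayed at 1 in each of these except relative to the hepatocyte markers, where it was 0. The count at least 2-fold higher in B stayed at 2 in all of them. The median difference of the 7 genes lay between -0.14 and 0.01. The hepatocyte scale for these 2 counts, and all alternatives for the differences of single members, lists and all genes, were chosen after seeing the data. The differences of apoa1a and apoea kept their sign in all of them, between -1.72 and -1.13 and between -2.34 and -1.58, as did apoa4 (0.88 to 1.74) and apobb (0.67 to 0.92). The median of the other apolipoprotein genes changed sign, to -0.01 without a minimum and -0.12 relative to the hepatocyte markers, and was 0.52 at a minimum of 10, where fewer genes entered. The counts over all 8386 genes, 593 in A and 573 in B, were 462 in A and 786 in B relative to the hepatocyte markers. They were 889 and 854 with 0.1 as the pseudocount, 188 and 134 with 10 as the pseudocount, and 187 and 129 by rank ratio. At a minimum of 10 they were 320 and 238, but out of only 3733 genes, so these 2 counts are not comparable with the others. The median level over the 7 genes, 1874, was 1273 to 2007 when 1 library was left out. An order of levels per residue of protein was not run, because no protein lengths were used here. No paired analysis was possible because 1 group was analysed. Depth is unknown, which leaves the precision of low genes such as apoea unstated.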
